A study of Homo sapiens with 8 samples.

Results

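The MYC network is described here in ribosome footprints of G401, a line grown from a rhabdoid tumor of the kidney and devoid of SMARCB1. The 10 genes were taken by name as the transcription factors of the network, and gene IDs of the count tables were matched to their symbols. They are MYC, MYCN, MYCL, MAX, MXD1, MXD3, MXD4, MXI1, MNT and MLX, 10 of the 20719 genes listed. Of these, 9 passed the filter on low counts that left 11097 genes to test, and MYCN did not. The 8 libraries came from G401 cells carrying a doxycycline-inducible SMARCB1 (the SMARCB1 line) or, as a control, a doxycycline-inducible GFP (the GFP line), both on the Tet-On system. Each line received 0.1 μg/ml doxycycline (Dox) or an equivalent volume of DMSO for 12 h, which gave 4 groups of 2 libraries: SMARCB1 Dox, SMARCB1 DMSO, GFP Dox and GFP DMSO. Both lines share the endogenous loss of SMARCB1, and whether each is 1 clone is not given in the sources used here. Plates were pooled for each library. Translating ribosomes were captured with RiboLace, and each value is a number of footprints on a coding sequence. Total RNA was not analysed here, so a difference in mRNA and a difference in its translation cannot be told apart, nor can fewer translating cells and fewer footprints per cell.

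MYC proteins bind DNA only as dimers with MAX, chiefly at E-boxes, and activate genes of ribosome production, nucleotide synthesis and cell growth. The MXD proteins, MXI1 and MNT compete for MAX and repress the same sites through the SIN3 and histone deacetylase corepressors. MLX is a parallel partner that pairs with MondoA (the product of MLXIP), MXD1, MXD4 and MNT, and the MondoA dimer responds to glucose and drives TXNIP. SMARCB1, a core subunit of the mSWI/SNF chromatin remodeler, is known to bind MYC, and its loss defines rhabdoid tumors.

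All of these proteins read DNA through a basic region. A coding stretch that overlaps this region is shown for 9 of the genes. It was set by a codon match and not by the limits of the region, so it is not the exact region. The region is the part by which they are one network, and footprints of near-identical genes could be confused there. Each line gives 39 coding bases, 5′ to 3′, read from GRCh38 over the canonical transcript of GENCODE 44. Capitals mark the 15 bases, a glutamate codon and the next 4 codons, by which the stretch was located. The span given includes 1 intron for MXD1, MXD3, MXD4, MXI1, MNT and MLX.
MYCN (chr2:15945867-15945905, plus strand): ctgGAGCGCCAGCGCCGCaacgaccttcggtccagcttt
MYCL (chr1:39897564-39897602, minus strand): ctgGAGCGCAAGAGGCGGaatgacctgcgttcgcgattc
MAX (chr14:65093750-65093788, minus strand): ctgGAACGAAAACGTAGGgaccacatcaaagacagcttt
MXD1 (chr2:69921752-69935375, plus strand): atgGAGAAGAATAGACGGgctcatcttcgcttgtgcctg
MXD3 (chr5:177310516-177310681, minus strand): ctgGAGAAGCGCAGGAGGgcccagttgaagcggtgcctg
MXD4 (chr4:2252498-2257995, minus strand): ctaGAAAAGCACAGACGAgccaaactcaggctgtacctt
MXI1 (chr10:110244844-110279204, plus strand): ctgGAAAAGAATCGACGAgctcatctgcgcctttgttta
MNT (chr17:2394130-2394318, minus strand): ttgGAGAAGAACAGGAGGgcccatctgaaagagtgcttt
MLX (chr17:42568914-42569212, plus strand): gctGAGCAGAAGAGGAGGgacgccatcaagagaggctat

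The stretches were related but not interchangeable. The closest pairs were MXD1 with MXI1 and MXD3 with MNT, each identical at 29 of 39 bases, with longest shared runs of 8 and 12 bases, and MYCN and MYCL were identical at 28. The second codon of the capitals is AAG in all 5 repressors MXD1, MXD3, MXD4, MXI1 and MNT, and in no other gene shown. Within single coding exons, no 28-base window of MYC, MYCN, MAX, MXD1, MXD3, MXD4, MXI1 or MNT occurred again on the main chromosomes. For MYCL this held for all but 1.47% of windows and for MLX for all but 3.39%. Windows across splice junctions and inexact matches were not searched. No coding base of the 10 genes is shared with the coding sequence of another annotated gene.

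The libraries held 5924443 to 14000039 counts on genes, with a median of 9170557. SMARCB1 (chromosome 22, 23786931 to 23838009) checked the labels: SMARCB1 Dox replicates 1 and 2 had 2553 and 1750 counts of it, and the other 6 libraries had 0. The mesenchymal marker VIM had 7325 to 43432 counts, the blood markers PTPRC and CD3E had 0 in every library, and the epithelial and endothelial markers EPCAM, CDH1, PECAM1 and CDH5 had at most 11. GFP Dox replicate 1 stood apart, with 56.4% of its counted alignments not unique, against 25.6% to 39.7% in the other 7. A read aligned at several places can enter this share more than once. In that library MAX, MXD1, MXD4 and MLX each had their lowest level of all 8. Values that it moved by more than 1.5 times or turned in sign are therefore also given without it, apart from that of NCL under Dox. Whether the share of alignments that were not unique bears on those low levels was not tested.

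MLX, MXD4 and MYC had the highest levels of the network per length of coding sequence. Set side by side as CPM per kb (counts scaled to library size, per kilobase of the union of annotated coding exons), MLX had a mean of 66.2 over the 8 libraries, MXD4 of 61.8 and MYC of 50.2. MAX, the obligate partner of MYC, followed at 12.1, then MNT at 9.32, MXD1 at 8.41, MXD3 at 7.15 and MXI1 at 6.27. MYCL was far below at 1.56. Among all genes tested, 79.9% lay below MLX, 74.8% below MYC, 41.5% below MAX and 9.49% below MYCL.

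The order had 3 clear steps, and neighbours between the steps were not separated. MYC exceeded MAX in 8 of 8 libraries, MXI1 exceeded MYCL in 8 of 8, and MYCL exceeded MYCN in 8 of 8. MLX exceeded MXD4 in 4 of 8 libraries and MXD4 exceeded MYC in 5 of 8, while MAX and MNT, MNT and MXD1, MXD1 and MXD3, and MXD3 and MXI1 changed places in 2 to 4 libraries. The top of the order depends on the length used. With the coding length of the canonical transcript, chosen after the values were seen, MYC came first at 83.0 CPM per kb, before MLX at 80.8 and MXD4 at 75.5, because the union of MYC coding exons spans 2252 bases and the canonical one 1362. MXD3 then took place 5 in place of 7.

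**Figure D1:**
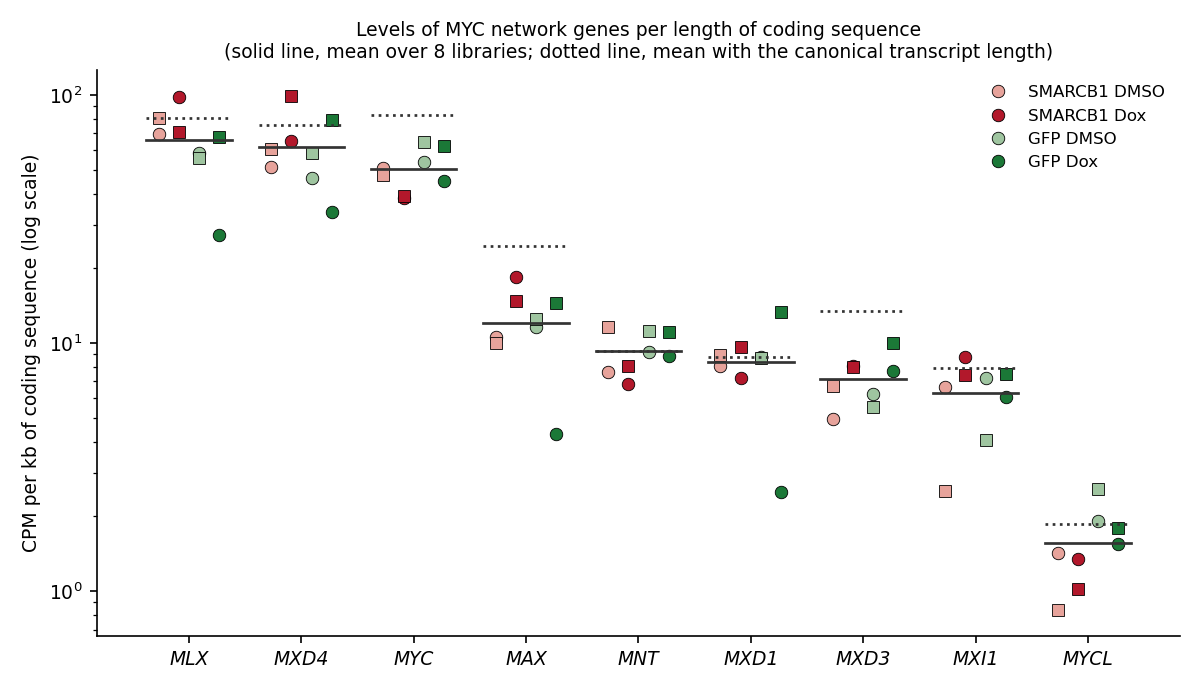
Level of the 9 detected network genes in each library as CPM per kb of coding sequence, on a log axis, with circles for replicate 1, squares for replicate 2 and colors for the 4 groups. The solid line is the mean over 8 libraries (66.2 for MLX, 1.56 for MYCL) and the dotted line the mean with the canonical transcript length. MLX, MXD4 and MYC overlap at the top, and MYCL has the lowest mean and lies below the others within each library, although its highest point (2.57) passes the lowest of MXI1 (2.54) and MXD1 (2.51).

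Of the MYC proteins, MYC itself supplied nearly all footprints, and its level was lowest in the cells that re-expressed SMARCB1, although no change passed the test. MYC (chromosome 8, 127735434 to 127742951) had 86.6 and 88.6 CPM in SMARCB1 Dox, 114 and 107 in SMARCB1 DMSO, 101 and 140 in GFP Dox, and 121 and 146 in GFP DMSO. Both SMARCB1 Dox libraries thus lay below the other 6, a pattern noticed in the values, which 3.82% of all genes tested share. A further 8.85% lay above the other 6. With CPM scaled by TMM, the scale of the test, MYC kept this pattern, beside 6.68% of all genes tested. The direction was not set beforehand. In either direction the share on that scale was 13.1%, and 2 of 9 members were set apart. The group means were 87.6 ± 1.40 CPM for SMARCB1 Dox and 111 ± 5.41 for SMARCB1 DMSO (SD, n = 2). The paper reports that SMARCB1 raised global translation, which counts scaled to each library do not show. The log2 fold change of MYC was -0.44 (SE 0.22, 95% interval -0.92 to 0.04, edgeR quasi-likelihood adjusted p = 1), which bounds its change relative to other genes between 0.527-fold and 1.03-fold. Over 12 other settings of this comparison it stayed between -0.46 and -0.34 with adjusted p-values from 0.622 to 1. In the GFP line the log2 fold change of MYC with Dox was -0.07 (SE 0.22, edgeR adjusted p = 1), or 0.03 without GFP Dox replicate 1.

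MYCL was present at a trace level and MYCN was close to undetected. MYCL had 20 and 8 counts in SMARCB1 Dox, 11 and 15 in SMARCB1 DMSO, 14 and 15 in GFP Dox, and 30 and 47 in GFP DMSO. All 4 libraries of the SMARCB1 line (1.10 to 1.86 CPM) lay below all 4 of the GFP line (2.02 to 3.36 CPM), whichever treatment they received. MYCN had 1 count in all 8 libraries together, in GFP DMSO replicate 1. A count of 0 allows up to 3 counts, which is 0.214 to 0.506 CPM per library for counting error alone, so MYCN was not distinguishable from none at this depth.

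MAX was highest in the induced cells, where MYC was lowest, and again no change passed the test. It had 17.9 and 14.3 CPM in SMARCB1 Dox (204 and 86 counts), 10.3 and 9.78 in SMARCB1 DMSO, 4.18 and 14.2 in GFP Dox, and 11.3 and 12.2 in GFP DMSO. Both SMARCB1 Dox libraries were above the other 6, but the lower of them by a narrow margin over GFP Dox replicate 2, and 8.85% of all genes tested show the same. With TMM scaling MAX kept this pattern, beside 6.4% of all genes tested, or 13.1% in either direction. SMARCB1 induction gave a log2 fold change of 0.58 (SE 0.41, 95% interval -0.30 to 1.46) and GFP induction one of -0.33 (SE 0.42, 95% interval -1.22 to 0.56), with an edgeR adjusted p of 1 in both. Without GFP Dox replicate 1 the value in the GFP line was 0.22. The difference between the lines' effects was 0.91 (95% interval -0.35 to 2.16, edgeR adjusted p = 0.981), or 0.36 without that library.

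MLX, the partner of MondoA, was higher in every library of the SMARCB1 line than of the GFP line, with or without Dox, though the test called no difference. Its levels were 88.0 and 63.3 CPM in SMARCB1 Dox, 62.1 and 72.6 in SMARCB1 DMSO, 24.4 and 60.8 in GFP Dox, and 52.1 and 49.9 in GFP DMSO. Every library of the SMARCB1 line (62.1 to 88.0 CPM) lay above every library of the GFP line (24.4 to 60.8 CPM), by the narrowest margin against GFP Dox replicate 2. MLX and MYCL were the members split by line in this way, 2 of the 9 tested, beside 16.9% of all genes tested. With CPM scaled by TMM, the scale of the test, MYC was split as well, below in the SMARCB1 line, which made 3 of 9 beside 17.6%. The log2 fold change of MLX with Dox was 0.06 (SMARCB1 line) or -0.22 (GFP line), uncalled in both, and the latter was 0.21 without GFP Dox replicate 1.

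Of the repressors that compete with MYC for MAX, MXD4 held 57.5% to 74.9% of their summed CPM per kb in each library. MXD4 had 50.1 and 75.9 CPM in SMARCB1 Dox, 39.3 and 46.4 in SMARCB1 DMSO, 25.96 and 60.8 in GFP Dox, and 35.3 and 44.9 in GFP DMSO. In CPM the induced libraries were above the DMSO libraries of the same line, but with TMM scaling SMARCB1 Dox replicate 1 (47.8) was below SMARCB1 DMSO replicate 2 (49.6). The groups of the GFP line overlapped on both scales. The log2 fold change of MXD4 with Dox was 0.43 in the SMARCB1 line (95% interval -0.26 to 1.12), and single libraries decide its size: it was 0.11 without SMARCB1 Dox replicate 2, 0.70 without SMARCB1 Dox replicate 1 and 0.27 when SMARCB1 DMSO replicate 1 was left out. For the GFP line it was 0.16, or 0.56 without GFP Dox replicate 1 and -0.40 without GFP Dox replicate 2.

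The less abundant repressors had values in both directions. MXI1, an MXD family member, had 9.82 and 8.33 CPM in the induced libraries and 7.43 and 2.85 in their DMSO controls. Its log2 fold change of 0.79 was the highest of the 9 genes there (SE 0.49, 95% interval -0.25 to 1.83). The DMSO libraries decide its size: it was 0.24 without SMARCB1 DMSO replicate 2 and 1.51 without SMARCB1 DMSO replicate 1. MXD3, known from dividing cells, was above DMSO in both Dox libraries of both lines, with 9.38 and 9.32 against 5.74 and 7.81 CPM when SMARCB1 was induced and 8.94 and 11.7 against 7.25 and 6.43 CPM when GFP was. Its log2 fold changes were 0.33 and 0.67, and their difference of -0.34 had an edgeR adjusted p of 0.987. The first was 0.09 without SMARCB1 DMSO replicate 1 and 0.65 without SMARCB1 DMSO replicate 2, which gave differences of -0.58 and -0.02. MNT, the most widely expressed MYC antagonist, had 11.9 and 14.2 CPM with SMARCB1 induced against 13.3 and 20.4 without it, which is a log2 fold change of -0.51 (95% interval -1.20 to 0.18). This too rests on the DMSO libraries, with -0.09 without SMARCB1 DMSO replicate 2 and -0.82 without SMARCB1 DMSO replicate 1. MXD1, an antagonist linked to differentiation, had 5.0 to 6.66 CPM in 4 of 4 libraries of the SMARCB1 line and 1.73 to 9.18 CPM in the GFP line, where the extremes were the 2 GFP Dox libraries. Its log2 fold changes with Dox were -0.15 and -0.13, with intervals that reached past 1 on both sides, and the second was 0.56 without GFP Dox replicate 1.

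**Figure D2:**
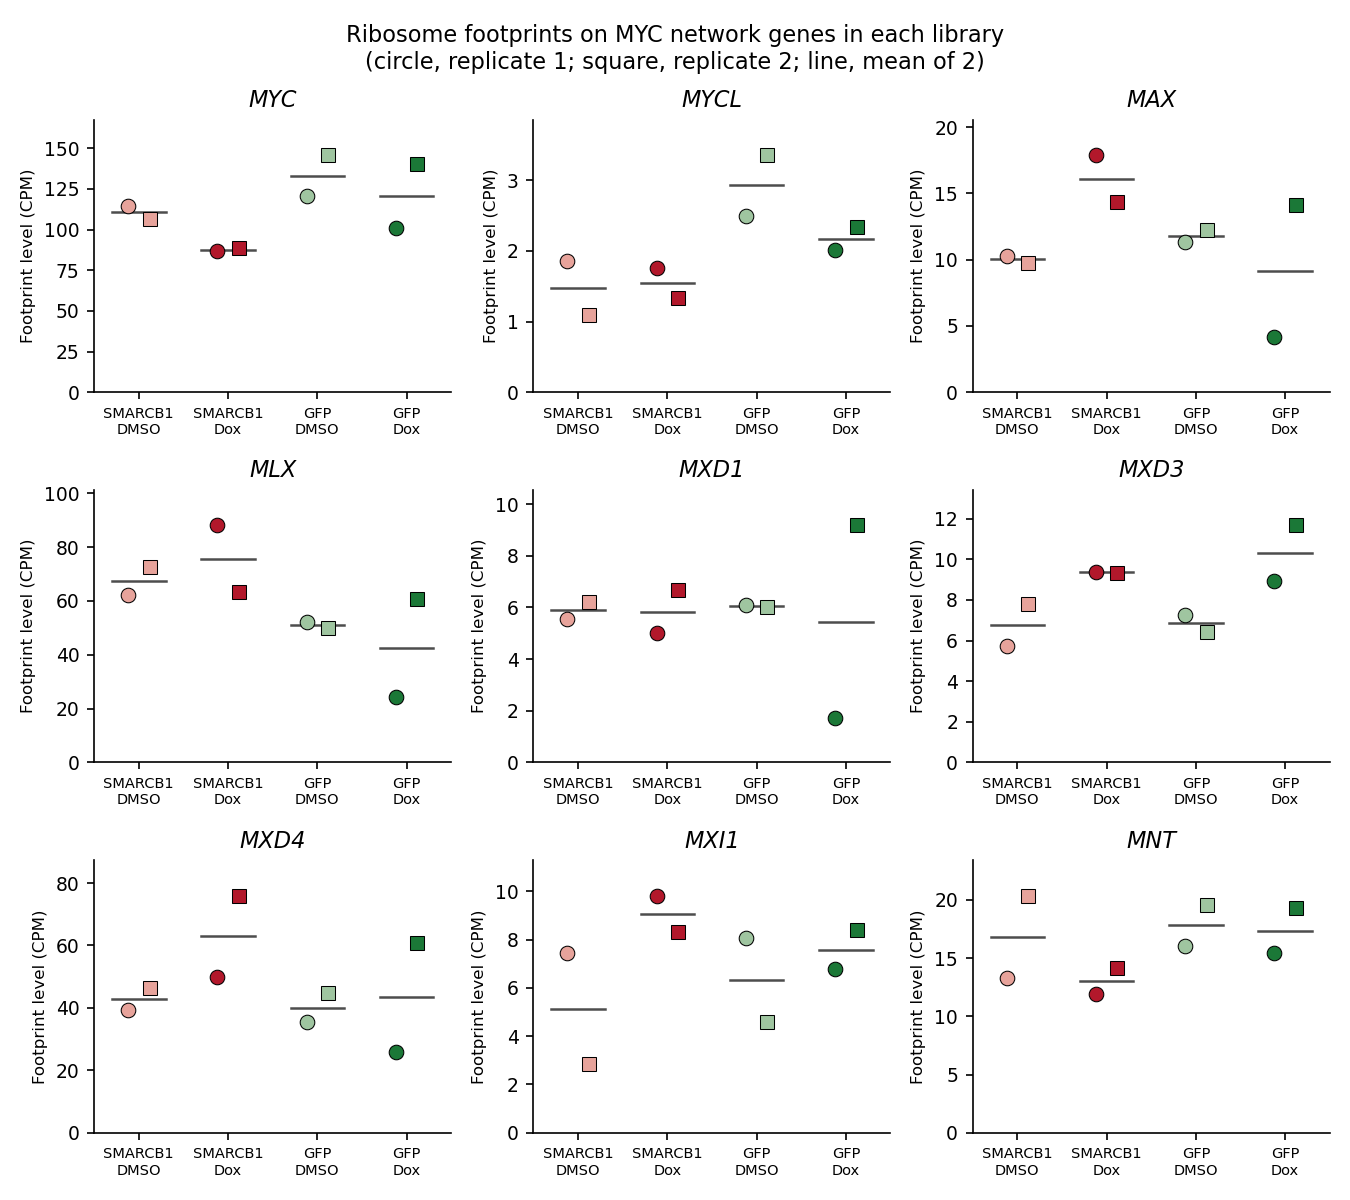
Footprint level of the 9 detected network genes in CPM, 1 panel per gene with its own axis from 0, for the 4 groups; circles are replicate 1, squares replicate 2 and the line the mean of both. MYC in SMARCB1 Dox (86.6 and 88.6 CPM) lies below the other 6 libraries, MAX there (17.9 and 14.3 CPM) above them, and MLX is higher in every library of the SMARCB1 line than of the GFP line.

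Because MYC and its antagonists share MAX, their balance within each library was also described, as a ratio that does not depend on library size. These ratios were chosen after the levels were seen and were not tested. MYC over the summed CPM per kb of MXD1, MXD3, MXD4, MXI1 and MNT was 0.4 and 0.297 in SMARCB1 Dox, 0.646 and 0.524 in SMARCB1 DMSO, 0.761 and 0.514 in GFP Dox, and 0.691 and 0.735 in GFP DMSO. The induced libraries had the lowest ratios of the 8. MYC over MAX was 2.09 and 2.67 in SMARCB1 Dox and 4.28 to 10.4 in the other 6 libraries, with the value of 10.4 in GFP Dox replicate 1. With canonical lengths the first ratio was 0.528 and 0.397 in SMARCB1 Dox and 0.686 to 0.997 elsewhere. MYC made up 15.2% of the network's summed CPM per kb in both SMARCB1 Dox libraries and 20.6% to 32.8% in the others. The numerator and denominators are the same genes whose separate changes did not pass the test, so the ratios add no independent evidence.

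**Figure D3:**
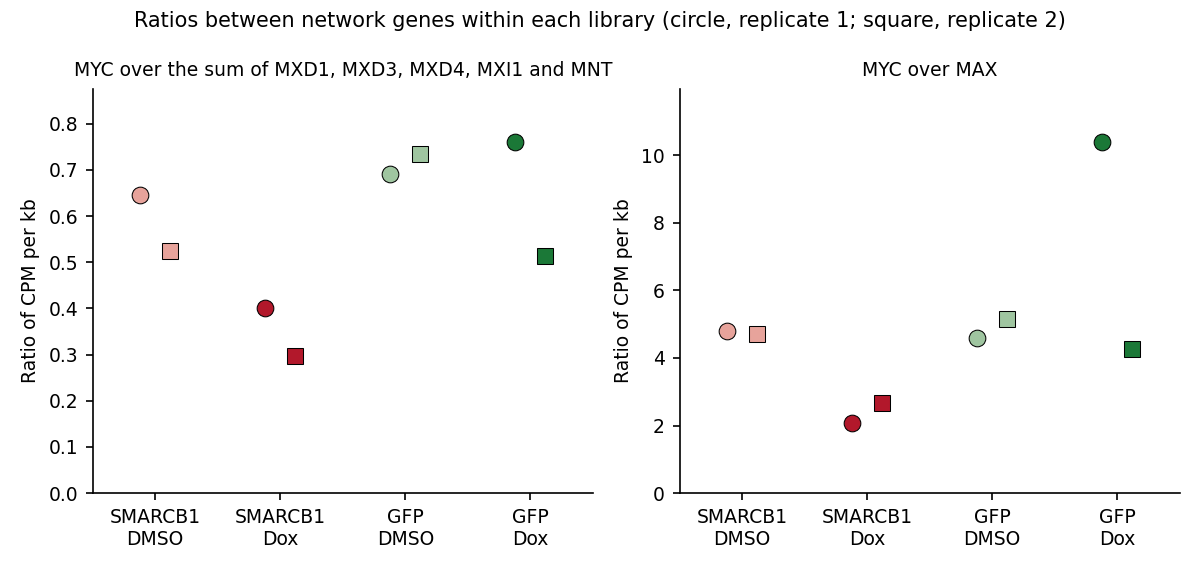
Ratio of CPM per kb between network genes within each library, MYC over the summed repressors on the left and MYC over MAX on the right, on axes from 0, with circles for replicate 1 and squares for replicate 2. The SMARCB1 Dox libraries sit lowest in both panels, at 0.4 and 0.297 on the left and at 2.09 and 2.67 on the right.

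Across the network, re-expression of SMARCB1 for 12 h gave no change that edgeR called. A call needed a fold change above 2 and a Benjamini-Hochberg p-value, adjusted over all genes tested, under 0.05. Called members numbered 0 of 9 in the SMARCB1 line, beside 0.0180% of all genes tested (2 of 11097). There 0 of the 9 had an unadjusted p below 0.05, beside 4.97% of all genes tested. DESeq2 also called 0 of 9. In the GFP line 0 of 9 were called, beside 0.0% of all genes. The difference between the Dox effects of the lines likewise gave 0 of 9, beside 0.0%. In both, DESeq2 called 0 and 0 of 9 had an unadjusted p below 0.05. The shares of all genes with such a p were 2.16% in the GFP line and 3.99% for the difference. In the SMARCB1 line 6 of the 9 log2 fold changes were above 0, with a median of 0.06 beside -0.02 for all genes tested. The Dox libraries did not overlap the DMSO libraries for 5 of 9 members there (MAX, MXD3, MXD4 and MXI1 above, MYC below), beside 35.1% of all genes. With TMM scaling it was 4 of 9, without MXD4, beside 35.6%. In the GFP line this was 2 of 9 (MXD3 above, MYCL below), beside 25.4%. The intervals set what could be seen: their half-width on the log2 scale in the SMARCB1 line ran from 0.48 for MYC to 1.45 for MYCL, so a 2-fold fall of MYC lies outside its interval and a 2-fold change of MYCL does not.

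**Figure D4:**
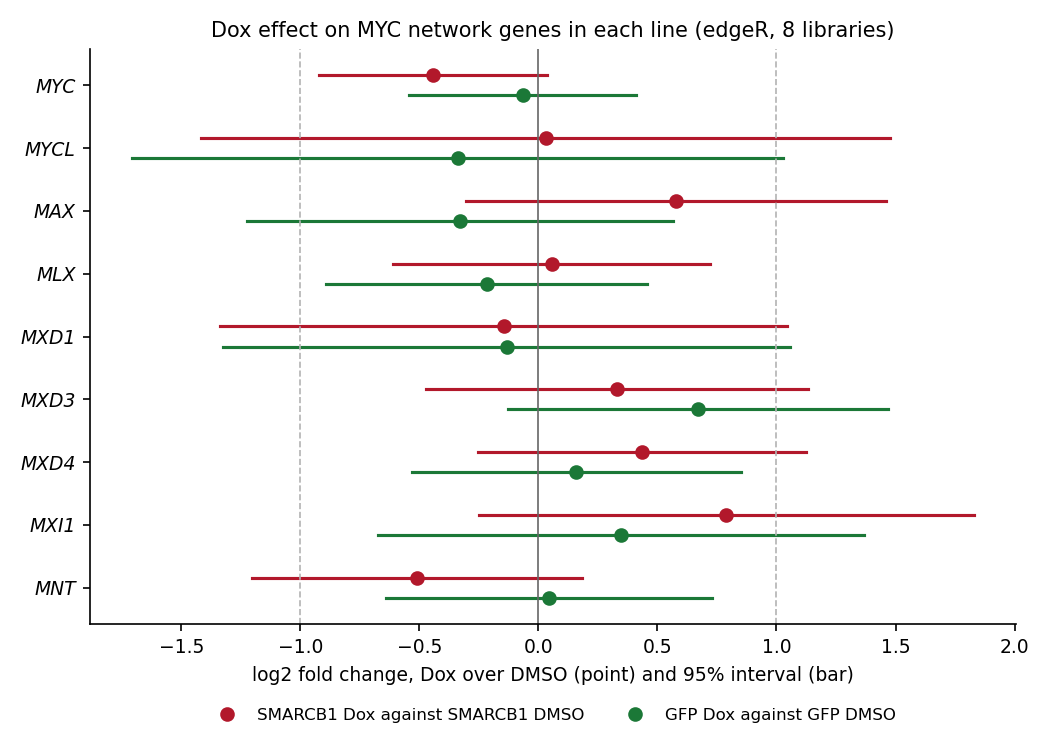
log2 fold change of Dox over DMSO for the 9 tested members in the SMARCB1 line (red) and the GFP line (green), points with 95% intervals from edgeR, and dashed lines at a 2-fold change. Each interval includes 0, with MYC in the SMARCB1 line the nearest to leaving it out (-0.92 to 0.04).

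Between the lines under Dox, MYC had a lower mean level and MLX a higher one in the SMARCB1 line, and neither passed the test after adjustment. This comparison shares the SMARCB1 Dox libraries with the induction comparison, so it is not a repeat of it. Under Dox the log2 fold change of the SMARCB1 line over the GFP line was -0.58 for MYC (SE 0.22, edgeR adjusted p = 0.166) and 0.75 for MLX (SE 0.32, edgeR adjusted p = 0.208), and these were the 2 of 9 members with an unadjusted p below 0.05, beside 18.7% of all genes tested. MAX had 0.75 (SE 0.42, edgeR adjusted p = 0.369). Called members numbered 0 of 9, beside 6.08% of all genes tested, and DESeq2 called 0. The 2 GFP Dox libraries decide the values of MLX and MAX. Without GFP Dox replicate 2, MLX had 1.37 and MAX 1.69. Without GFP Dox replicate 1, the library that stood apart, they had 0.32 and 0.20. MYC had -0.68 without that library.

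Under DMSO, in separate libraries, MLX had a log2 fold change of 0.48 between the lines (95% interval -0.19 to 1.14), MYCL of -0.97 (95% interval -2.36 to 0.42), MYC of -0.20 (95% interval -0.68 to 0.28) and MAX of -0.16. The edgeR adjusted p-values of the 9 members started at 0.595. Of the 9, 0 were called, beside 4.97% of all genes tested, and DESeq2 called 0. An unadjusted p below 0.05 was found for 0 of 9, beside 13.9% of all genes tested. The sign under DMSO was that under Dox for MYC, MYCL, MLX, MXD4 (0.17 and 0.45) and MXD1 (0.04 and 0.03). MYC had a lower mean level in the SMARCB1 line in both pairs of groups, with or without induction. Single libraries decide several of these sizes: without SMARCB1 DMSO replicate 2 the value under DMSO was 0.30 for MLX and -0.64 for MYCL, and for MYC it was -0.07 without GFP DMSO replicate 2 and -0.32 without GFP DMSO replicate 1. Under Dox, MXD4 had 0.05 and MXD1 -0.67 without GFP Dox replicate 1.

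Partners and known targets of the network were followed in 7 lists of 66 genes, of which 62 could be tested. In the SMARCB1 line with Dox, 0 of 62 were called in either direction, and the same count came from the GFP line and from the difference between the lines. Of known MYC activated genes, such as those of nucleolar function and nucleotide synthesis, 5 of 24 had a log2 fold change above 0 in the SMARCB1 line, with a median of -0.17 beside -0.02 for all genes tested. In the GFP line it was 17 of 24 with a median of 0.11. Single libraries decide both medians: the first was 0.07 without SMARCB1 DMSO replicate 2, and the second was 0.01 without GFP Dox replicate 1. NCL, which encodes nucleolin and had the highest level per kb of that list, had 5156 and 5232 CPM in SMARCB1 Dox, 5584 and 8719 in SMARCB1 DMSO, 11610 and 6977 in GFP Dox, and 7811 and 7778 in GFP DMSO. Its log2 fold change with SMARCB1 was -0.58 (SE 0.35, edgeR adjusted p = 1).

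The other lists had small medians in the SMARCB1 line, of both signs. MYC coactivators had a median log2 fold change of -0.15 (2 of 10 above 0), and their most abundant member per kb, the ATPase RUVBL1, had -0.34. SIN3 and NCOR corepressors had a median of -0.22 (3 of 10 above 0), or -0.003 without SMARCB1 DMSO replicate 2, and the histone deacetylase HDAC2 had 0.08. Genes of MYC protein turnover had a median of 0.18 (6 of 9 above 0), with 0.18 for PPP2CA, the catalytic subunit of the phosphatase PP2A. Known MYC repressed genes had a median of 0.15 (3 of 5 above 0), which changed sign in 3 of 12 other settings. MGA, a large MAX-binding protein, had 163 to 226 CPM over all libraries and a log2 fold change of -0.21. MLXIP, which encodes MondoA, had 17.2 to 31.3 CPM and -0.15, and its relative MLXIPL had 7 counts in all.

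Between the lines, TXNIP was called: the SMARCB1 line had footprints on it in every library and the GFP line next to none. TXNIP (chromosome 1, 145992435 to 145996579), a glucose-responsive target of MondoA and MLX that restrains glucose uptake, had 222 and 241 counts in SMARCB1 Dox, 84 and 285 in SMARCB1 DMSO, 2 and 0 in GFP Dox, and 3 and 5 in GFP DMSO. In CPM the SMARCB1 line ranged from 14.2 to 40.1 and the GFP line from 0 to 0.357. By summed counts scaled to depth, TXNIP was 61.1-fold higher in the SMARCB1 line under DMSO (95% exact interval 30.7 to 143, for counting error only) and 178-fold higher under Dox (48.9 to 1470). edgeR called it in both comparisons (adjusted p = 1.82e-05 and 1.41e-05). The ratio under Dox rests on the 2 counts of GFP Dox replicate 1. Without that library it was 463 counts against 0, for which the exact interval has a lower bound of 46.2 and no upper one. It was 92.2 without GFP Dox replicate 2, 268 when SMARCB1 Dox replicate 1 was left out and 130 when its duplicate was. With SMARCB1 the log2 fold change was 0.63 within the SMARCB1 line (SE 0.42, edgeR adjusted p = 1). ARRDC4, the other MondoA target followed, had 10.9 to 17.6 CPM in all 8 libraries and log2 fold changes between the lines of 0.09 under DMSO (95% interval -0.70 to 0.88) and -0.22 under Dox (95% interval -1.03 to 0.59), or 0.34 without GFP Dox replicate 1.

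The TXNIP promoter is shown because this known target of MLX had the widest difference between the lines of all 62 list genes tested. The 250 bases before the gene start (chr1:145996580-145996829, minus strand, GRCh38.p14, from RefSeq) are written 5′ to 3′, and capitals mark the motif CACGAG, an E-box variant, searched on both strands.
TXNIP: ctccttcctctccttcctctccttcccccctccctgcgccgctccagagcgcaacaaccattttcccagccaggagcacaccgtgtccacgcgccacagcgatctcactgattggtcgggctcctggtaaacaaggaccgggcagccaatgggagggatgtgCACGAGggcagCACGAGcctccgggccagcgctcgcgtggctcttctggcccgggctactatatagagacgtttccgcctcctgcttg
CACGAG occurred 2 times, 88 and 77 bases before the start. Of 35116 promoter windows in the RefSeq table, cut to the same span, 5.58% hold this motif at least once and 6.35% hold the E-box CACGTG. Of the network's own genes, 9 had a window: CACGTG was in those of MXD4, MNT and MLX (33.3%) and CACGAG in 0. A match of letters is not a measurement of binding.

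Beyond TXNIP, 2 list genes were called between the lines, both higher in the SMARCB1 line. THBS1 (chromosome 15, 39581079 to 39599466), which encodes the matrix protein thrombospondin-1 and is on the list of MYC repressed genes, had 363 and 453 CPM in SMARCB1 Dox, 531 and 543 in SMARCB1 DMSO, 183 and 142 in GFP Dox, and 112 and 120 in GFP DMSO. Its log2 fold change between the lines was 2.28 under DMSO (SE 0.27, edgeR adjusted p = 6.76e-05) and 1.17 under Dox (SE 0.26, edgeR adjusted p = 0.0127). Under Dox the call, but not the size, was lost with only the groups compared (1.17, edgeR adjusted p = 0.0512) and without SMARCB1 Dox replicate 2 (1.01, edgeR adjusted p = 0.16). Without GFP Dox replicate 2 the value was 0.89, under a 2-fold change. The difference between the lines' Dox effects was -1.11 (SE 0.36, edgeR adjusted p = 0.981).

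FBXW7 (chromosome 4, 152320544 to 152536092), the ubiquitin ligase subunit that marks MYC for degradation, had 103 and 90.7 CPM in SMARCB1 Dox, 119 and 84.3 in SMARCB1 DMSO, 45.7 and 40.1 in GFP Dox, and 55.6 and 50.4 in GFP DMSO. The 2 lines did not overlap. Under Dox the log2 fold change was 1.03 (SE 0.25, edgeR adjusted p = 0.0231), and the call depended on single libraries while the size stayed between 0.82 and 1.28 without each. It was not called without SMARCB1 Dox replicate 1 (0.93, edgeR adjusted p = 0.213), SMARCB1 Dox replicate 2 (1.13, 0.0853) or GFP Dox replicate 2 (0.82, 0.0639), nor with only the groups compared (1.03, 0.0583). Under DMSO it was 0.998 (SE 0.25, edgeR adjusted p = 0.0289), just under the 2-fold limit and so not called. Its adjusted p there also depended on single libraries. The size was 0.80 without SMARCB1 DMSO replicate 1 and 1.18 without SMARCB1 DMSO replicate 2. Within the SMARCB1 line it was -0.17 with Dox. The lists together had 2 of 62 genes called under DMSO and 3 of 62 under Dox, below the 4.97% and 6.08% of all genes, and the genes were higher in the SMARCB1 line in each case.

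Other list genes came near a call under Dox, and were chosen after their values were seen. NCL, of the MYC activated list, was lower in the SMARCB1 line, with a log2 fold change of -1.01 (SE 0.35, edgeR adjusted p = 0.117). Of the settings with both libraries per group, DESeq2 alone called it. GFP Dox replicate 1 had its highest level (11610 CPM). GFP Dox replicate 2 had 6977 CPM, below the 7811 and 7778 of GFP DMSO. The difference under Dox thus leans on 1 library, and the log2 fold change without that library is not given. Under DMSO the log2 fold change of NCL was -0.04. PDGFRB, a growth factor receptor on the same MYC repressed list as THBS1, was lower in the SMARCB1 line, with 150 and 157 CPM in SMARCB1 Dox, 169 and 154 in SMARCB1 DMSO, 238 and 259 in GFP Dox, and 216 and 235 in GFP DMSO. Its log2 fold change was -0.83 under Dox (SE 0.22, edgeR adjusted p = 0.0362), past the threshold on p and under the 2-fold limit, and -0.42 under DMSO (edgeR adjusted p = 0.446). Under Dox that threshold was missed with library size alone (edgeR adjusted p = 0.0795) and with only the groups compared (edgeR adjusted p = 0.106). The other alternatives with both libraries per group passed it. Without single libraries the size ran from -0.90 to -0.75, and the adjusted p depended on them. DDIT3, a stress-induced transcription factor on that list, had 1.57 under Dox (SE 0.47, edgeR adjusted p = 0.0687), was called with DESeq2 and without the filter on low counts, and had 0.94 without GFP Dox replicate 1.

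**Figure D5:**
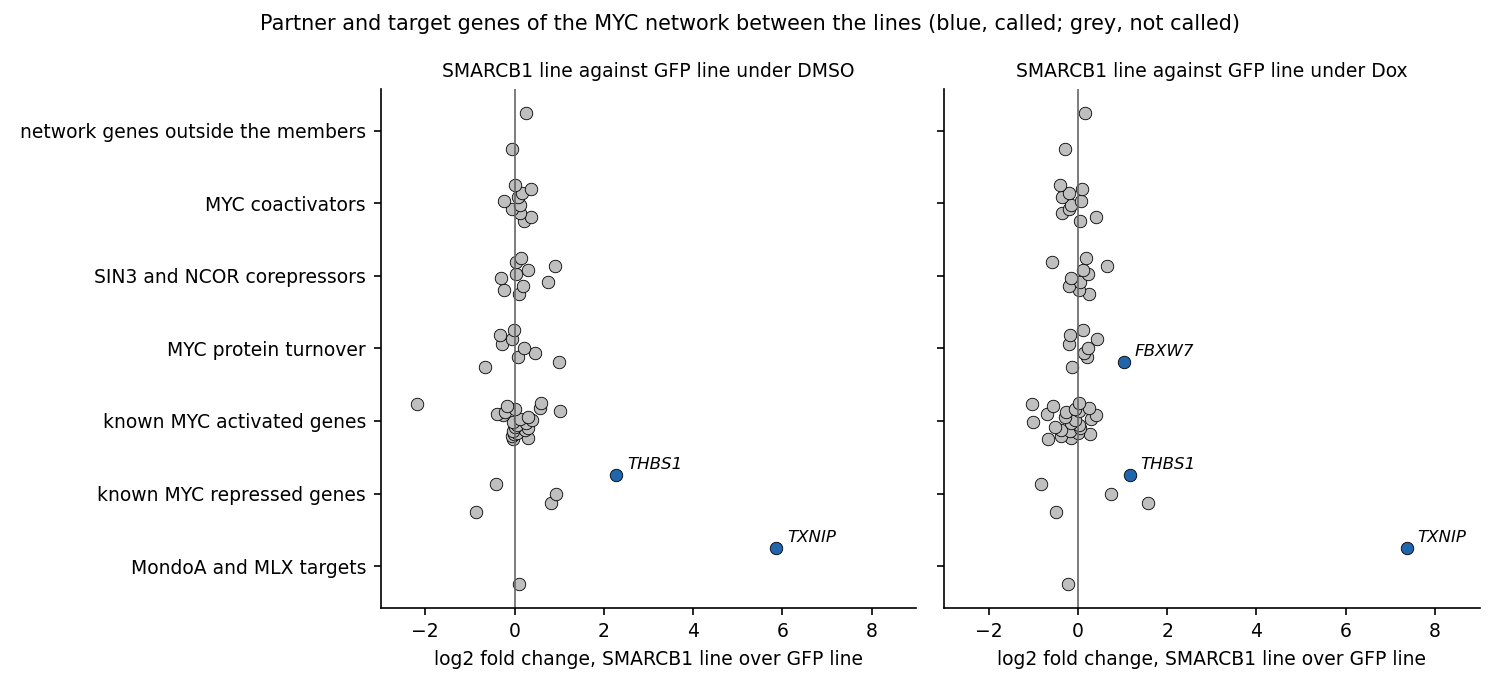
log2 fold change of the SMARCB1 line over the GFP line for the 62 tested list genes, 1 point per gene in rows by list, under DMSO on the left and Dox on the right; blue points were called by edgeR and named. TXNIP stands alone at the right (fitted values of 5.86 and 7.38, against very few counts in the GFP line), with THBS1 at 2.28 and 1.17 and FBXW7 at 1.03 under Dox.

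Genes whose levels followed MYC over the 8 libraries were taken by the Pearson correlation of log2(CPM + 1). The highest were GTF3C4, a subunit of a polymerase III transcription factor (r = 0.978), PIM1, a kinase (r = 0.964), and KBTBD4, an adaptor of a ubiquitin ligase (r = 0.960). They ranged from 63.0 to 90.8, 13.9 to 37.3 and 17.6 to 34.4 CPM. The 8 points share groups and depth, and the genes are the extremes of all those tested, so these values describe the libraries only.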

How the data were processed

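The authors deposited raw footprint counts per gene for 8 RiboLace libraries, aligned with STAR and counted with HTSeq (intersection-strict) on coding sequences of GENCODE 42, build hg38 per the labels. Tool versions, the strand option and the handling of duplicates are not given in the sources used here. The 5 summary rows of each table were left out of totals. Of uniquely aligned reads, 52.8% to 61.8% lay on coding sequence. Symbols, positions and coding lengths come from GENCODE 44, and 311 of 20719 gene IDs had no symbol there. CPM used gene totals.

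The 11097 genes kept by filterByExpr were fitted in edgeR 4.0.16 (R 4.3.3, limma 3.58.1) with TMM, glmQLFit and 1 term per group over all 8 libraries, and tested with glmQLFTest. Adjusted p-values are Benjamini-Hochberg over all genes tested, and genes were called below 0.05 with a fold change above 2. SE values come from the F statistic. The code was tested on simulated counts with 200 changed genes. DESeq2 1.42.0, other scalings and filters, only the groups compared, a replicate block, a robust fit and leaving out each library were alternatives, and TMM-scaled levels were added after the data were seen. The comparisons share libraries.

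The 10 members and the lists were chosen with earlier results of these data known. Named genes are the members, SMARCB1, from each list the genes called (at most 4 per list and comparison) and the most abundant per kb, and the 3 genes most like MYC. MLXIP, MLXIPL and ARRDC4 are given as network genes or MondoA targets. Replicate libraries differed by more than sampling noise (chi-square per degree of freedom 14.7 to 44.8). How independent the duplicates were is not given, so p-values measure the spread between these libraries. Reads carried no stated molecular identifiers, so count intervals and limits for 0 counts cover the counting error alone. With 2 libraries a group, exact permutation of 1 gene could not pass 0.05.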

Additional observations from a re-analysis of the deposited data

How the results depend on the processing

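The number of called members was 0 in each of the 5 comparisons under every alternative run, except that leaving out each library in turn gave 0 to 2 for the lines under Dox. The fit of only the groups compared could not be made for the difference between the lines. Over the other settings, 9 of 346 member values changed sign and 0 passed the threshold. With library size alone, MNT had -0.04 with Dox in the GFP line and -0.071 between the lines under DMSO, and MXD1 had 0.13 in the difference of Dox effects and -0.032 between the lines under DMSO. For that difference MXD1 also had 0.006 with DESeq2 and 0.018 without the filter on low counts. Library size alone moved the median of all genes to 0.16 for the difference and 0.11 for the lines under Dox.

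Replicate numbers were not treated as pairs in the main fit. Deviations of libraries with the same number correlated at 0.05 to 0.28 across genes. All of these were positive, and only that of SMARCB1 DMSO with GFP Dox (0.05) was below 0.1. With the replicate block, MXD1 had 0.16 in the difference and -0.004 between the lines under DMSO, and MNT -0.011 there. The block called 0 members in every comparison. A minimum of 10 counts in every library removed TXNIP from the tests.

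Leaving out each library turned the sign of 20 of 45 member values. With Dox in the SMARCB1 line, MYCL ranged from -0.30 to 0.35, MXD1 from -0.35 to 0.055 and MLX from -0.21 to 0.27. In the GFP line, MYC ranged from -0.19 to 0.063, MAX from -1.27 to 0.22, MXD1 from -1.57 to 0.56, MXD4 from -0.40 to 0.56, MXI1 from -0.02 to 0.82, MNT from -0.081 to 0.18 and MLX from -0.84 to 0.21. In the difference, MXD1 ranged from -0.71 to 1.42, MXD4 from -0.13 to 0.83, MXI1 from -0.10 to 1.16 and MLX from -0.15 to 0.90. Between the lines under DMSO, MXD1 ranged from -0.11 to 0.16, MXD3 from -0.24 to 0.32, MXD4 from -0.017 to 0.35, MXI1 from -1.02 to 0.24 and MNT from -0.41 to 0.32, and under Dox MXD1 ranged from -0.67 to 1.47. The cause was not tested.

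Over all genes, 2 were called with SMARCB1, 34 with DESeq2, 46 without the filter, 13 with the block, 5 with only the groups compared and 1 at 10 or more counts in every library. That last filter left 288 and 377 calls between the lines, against 552 and 675. Without the filter, 14 genes were called in the GFP line and 15 in the difference, against 0.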
